A study of Macaca mulatta with 8 samples.

Results

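The 10 genes described here encode the light-sensing cascade of cone photoreceptors: the cone opsins OPN1LW, OPN1MW3 and OPN1SW, the transducin subunit GNAT2, the phosphodiesterase subunits PDE6C and PDE6H, the channel subunit CNGB3, the opsin kinase GRK7, the arrestin ARR3 and the cyclase activator GUCA1C. They were taken by symbol from the 26533 features that each library lists. The symbol was in the files for 9 of them, and OPN1MW3 (ENSMMUG00000054361) was matched through a table of gene names. UMIs, the counts of unique molecules, were followed in cones by opsin, retinal area and eye, and in the other cell classes. Single cells from 4 mm retinal punches of 2 male rhesus macaques had been sequenced in droplets from the 5′ end of their transcripts, in 8 libraries. The libraries form 4 groups of 2, with the right eye as replicate 1 and the left as replicate 2. The groups are NHP1_uninjected (age 5 years) and, from NHP2 (age 6 years), NHP2_uninjected, NHP2_hRPGR and NHP2_mScarlet.

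By the study's methods NHP1 had received the AAV2-CAG-hRPE65 vector under the retina of both eyes, in which CAG is a promoter active in many cell types. NHP2 had received AAV8-GRK1-hRPGR and AAV8-GRK1-mScarlet in separate blebs of each eye, in which GRK1 names a promoter active in photoreceptors, hRPGR a codon-optimised human RPGR sequence and mScarlet a red fluorescent protein. The fluid of an injection lifts a patch of retina, called a bleb. All eyes also had subtenon triamcinolone, a steroid, and the left eyes had intravitreal adalimumab, an antibody against TNF-alpha, so eye and adalimumab cannot be told apart. Both animals were wild type, so the vectors replaced no missing gene. The 6 NHP2 libraries came from areas of 1 animal, and p-values therefore measure the spread between punches and eyes and not between animals.

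In the dark, cyclic GMP holds channels in the cone outer segment open. Light activates an opsin, the opsin activates transducin, transducin releases phosphodiesterase from its inhibitory subunit, and the fall in cyclic GMP closes the channels. GRK7 and arrestin then switch the opsin off, while guanylate cyclase and its calcium-sensing activators restore cyclic GMP. Macaques, like humans, have cones for long (L), middle (M) and short (S) wavelengths, and S cones are a small minority.

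The sequences around the cone opsin genes bear on how their UMIs can be read. On Mmul_10, with RefSeq gene models, OPN1LW (chrX:150144576-150159124) and OPN1MW3 (chrX:150183047-150197510) lie on the plus strand 23.9 kb apart, and OPN1SW (chr3:155017888-155021961) lies on the minus strand of chromosome 3. The mRNAs of OPN1LW and OPN1MW3 were identical at 1130 of 1158 aligned bases (97.6%), and the longest identical run was 193 bases. The first 300 aligned bases, towards the 5′ end that was sequenced, held 2 mismatches. The first 54 bases of the OPN1LW mRNA lie before the alignment and have no counterpart in the OPN1MW3 model. The UMIs were counted on ENSMMUG features, whose models were not compared with these. The best local alignment of OPN1LW with OPN1SW was identical at 602 of 996 positions (60.4%). The 2 near-identical genes are therefore read as features that can exchange or lose reads, whereas OPN1SW is distinct. The stretches before the 2 X-linked genes are shown because they are as alike as the transcripts, with the differing bases in capitals, 5′ to 3′.

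OPN1LW, chrX:150144430-150144575 (plus strand): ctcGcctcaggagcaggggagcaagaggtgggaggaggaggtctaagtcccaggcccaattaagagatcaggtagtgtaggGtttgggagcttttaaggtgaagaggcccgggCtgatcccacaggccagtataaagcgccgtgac

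OPN1MW3, chrX:150182847-150182992 (plus strand): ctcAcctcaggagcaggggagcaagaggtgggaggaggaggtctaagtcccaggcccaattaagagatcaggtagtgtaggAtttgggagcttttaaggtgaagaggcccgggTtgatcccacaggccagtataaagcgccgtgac

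These 146 bases differ at 3 positions. Before OPN1LW the stretch ends at the annotated start, and before OPN1MW3 it ends 54 bases earlier, since the annotated OPN1MW3 start lies that much further along. The 200 bases before OPN1SW are shown for contrast, with matches to the TAATCC motif bound by photoreceptor homeobox factors, or to its reverse complement GGATTA, in capitals.

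OPN1SW, chr3:155021962-155022161 (minus strand): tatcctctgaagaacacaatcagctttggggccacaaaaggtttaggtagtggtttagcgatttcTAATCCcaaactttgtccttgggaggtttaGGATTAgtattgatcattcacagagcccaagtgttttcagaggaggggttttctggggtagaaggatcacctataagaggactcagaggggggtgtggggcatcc

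Among the 10 members, windows of this length held the motif before 3: OPN1SW (2 matches), ARR3 (1 match) and CNGB3 (1 match). Of all 20774 windows of the same length before annotated genes, 1473 (7.09%) held it. A match is only a run of letters, and neither it nor its absence shows binding. The other members lie at chr1:114520694-114536350 (GNAT2), chr2:43907434-43948075 (GRK7), chr2:167236234-167283621 (GUCA1C), chr8:86998432-87154325 (CNGB3), chr9:93774622-93825046 (PDE6C), chr11:16363441-16384386 (PDE6H) and chrX:67320968-67326686 (ARR3). UMIs are counted over whole genes and do not tell exons, introns or UTRs apart.

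The 8 libraries held 90634306 to 146519011 UMIs. From 91796 barcodes that passed the filters on cells, 83192 were kept after removal of the highest doublet scores, and 2548 of these (3.06%) were cone-like, between 135 and 632 cells per library. The cells were clustered, named and scored for doublets without the 10 members. The 3 cone-like clusters each raised 5 or 6 of the 6 cone markers found (CNGA3, GNB3, RXRG, THRB, SLC24A2, CCDC136). None of these was among their 10 leading genes, which included KCNB2, WWC1 and SEC14L5. One of these clusters held 552 cells of low mitochondrial share and is described separately further on. Pairs of libraries shared 135 to 255 cell barcodes, 1.39 to 2.16% of the barcodes of the smaller library. Several libraries stood apart. The left NHP1 and left NHP2_uninjected libraries had the most free RNA of the members (3019 and 2887 CPM, against 224.8 to 1301 elsewhere), where CPM is UMIs per 1000000 of the sum and free RNA is that in barcodes of 100 to 1000 UMIs. In barcodes of 10 to 100 UMIs these values were 1685 and 1389 CPM, against 435 to 1423 elsewhere. Right NHP2_mScarlet stood at 299 CPM in the first range and 1306 in the second. Ratios to the free RNA below therefore depend on the range taken. Cones of 3 libraries held 77 or more UMIs of a transgene that their label does not name. Cones of the left NHP1 library, labelled uninjected, held 652 huRPE65 UMIs (85.9 CPM) and those of the right 0. Cones of the right NHP2_uninjected library held 77 coRPGR UMIs (12.1 CPM), and those of the right NHP2_mScarlet library held 177 coRPGR UMIs (28.7 CPM) beside 2192 mScarlet UMIs. Rods held more: 23435 huRPE65 UMIs in left NHP1 (519 CPM, 49.1% of rods) and 6008 coRPGR UMIs in right NHP2_uninjected (165 CPM, 18.9% of rods). Uninjected is therefore used below as the label of these libraries, and whether they came from areas free of vector is in doubt. The coRPGR level was 12520 CPM in cones of the right NHP2_hRPGR library and 380 CPM in those of the left.

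The summed level of the 10 members in cones was 11731 to 17952 CPM per library. Over the free RNA of the same library this was a mean log2 ratio of 4.45 ± 1.67 (SD, n = 8), with the lowest ratios in left NHP1 (1.96) and left NHP2_uninjected (2.32). Genes listed as markers or parts of other cells were also present in the cone sums. The 11 rod genes found summed to 437 to 2083 CPM and the 20 immune genes found summed to 7.03 to 23.9 CPM. The rod genes include SAG, at 2726 to 3844 CPM in the S cones described below, and GRK1, at 102 to 147 CPM in L/M cones. Their sum is therefore not a measure of RNA from rods alone.

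Levels in cones are given as CPM per library and are not compared between genes. The opsins come first in the cascade. OPN1LW stood at 1129 and 1017 CPM (right and left NHP1), 1730 and 1292 (NHP2_uninjected), 1517 and 1711 (NHP2_hRPGR) and 1791 and 2158 (NHP2_mScarlet). OPN1MW3 stood at 727 and 724, 1160 and 930, 758 and 1037, and 813 and 963 CPM in the same order. For OPN1LW the NHP1 pair lay below all 6 NHP2 libraries, and for OPN1MW3 it lay below all 6 as well, with right NHP2_hRPGR closest. OPN1SW was at 263, 249, 262, 291, 355, 118, 306 and 0 CPM, so that the left libraries of both blebs were low and the other 6 lay close together.

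Of the members downstream of the opsins, GNAT2, the alpha subunit of cone transducin, ranged from 528 to 632 CPM (mean 579 ± 37.3, SD, n = 8) and GRK7 from 505 to 716 CPM (595 ± 59.7). PDE6C, the catalytic subunit of the cone phosphodiesterase, ranged from 325 to 595 CPM (495 ± 83.9), and CNGB3, the beta subunit of the cone channel, from 228 to 421 CPM (334 ± 63.1). For both, left NHP1 was the lowest library. PDE6H, the inhibitory subunit, ranged from 3369 to 6639 CPM (4929 ± 1274), ARR3 from 3568 to 5076 CPM (4337 ± 540) and GUCA1C, an activator of guanylate cyclase, from 676 to 1009 CPM (836 ± 117).

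**Figure D1:**
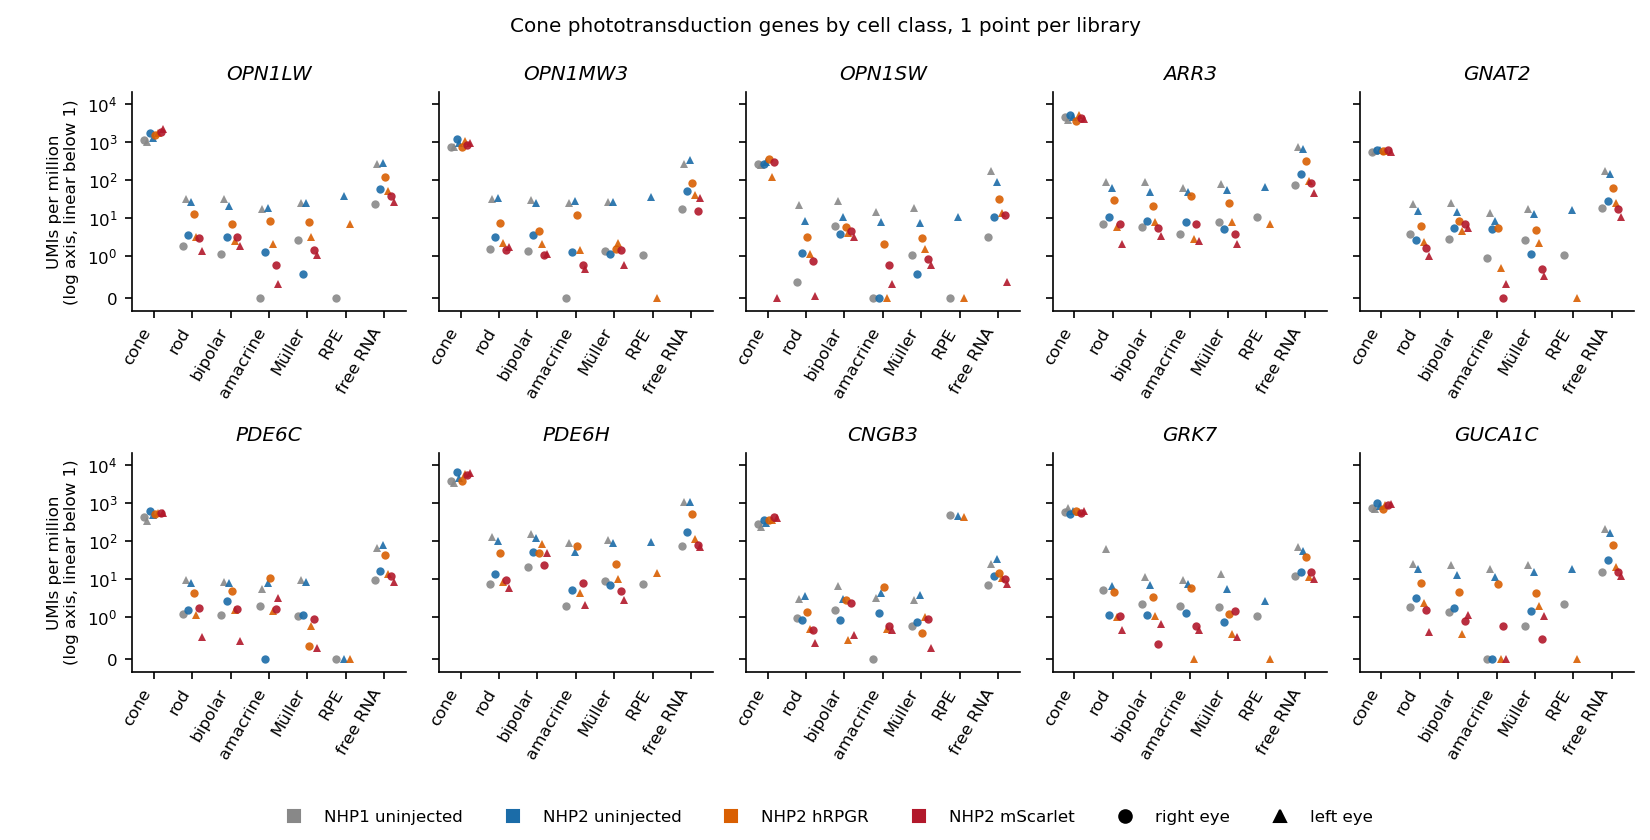
CPM (log axis, linear below 1) of each member in cones, rods, bipolar, amacrine, Müller and RPE-like cells and in the free RNA, 1 point per library, with colours for groups and symbols for eyes. Cone points lie above the free RNA of the same library for every member except OPN1SW in left NHP2_mScarlet, and RPE-like cells stand with the cones for CNGB3 (418 to 490 CPM).

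Cones were classed by their opsin UMIs alone. A cone with at least 5 opsin UMIs was S where OPN1SW took at least 80% of them and L/M where it took at most 20%. This gave 249 S cones, 2083 L/M cones, 8 mixed cones and 208 cones with too few opsin UMIs. The thresholds limit how many UMIs of the other opsins a classed cone can hold. S cones held a median of 31 OPN1SW UMIs, 7.63% of them held an OPN1LW UMI and 6.43% an OPN1MW3 UMI, while 1.82% of L/M cones held an OPN1SW UMI and none more than 3.

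S cones made up 15.4% (30 of 195) of the classed cones in right NHP1 and 12.9% (73 of 567) in left NHP1. In NHP2_uninjected they made up 9.71% (33 of 340) and 11.8% (47 of 399) in the right and left eye. The 4 bleb libraries were the most uneven: 8.55% (23 of 269) and 3.37% (6 of 178) in NHP2_hRPGR, and 14.3% (37 of 258) and 0% (0 of 126) in NHP2_mScarlet. Exact 95% intervals were 5.50 to 12.6% and 1.25 to 7.19% for the NHP2_hRPGR libraries and 10.3 to 19.2% for right NHP2_mScarlet. The left NHP2_mScarlet library had no OPN1SW UMI in any of its 135 cones. Its 0 of 126 classed cones allow a share of S cones of up to 2.38% (3 cells of 126), and the exact 95% interval reaches 2.89%. The shares of the bleb libraries (mean 6.57% ± 6.26, n = 4) surrounded those of the NHP2_uninjected libraries (10.7% ± 1.47, n = 2), with p = 0.533 in an exact permutation test (two-sided), where 4 against 2 libraries cannot go below 0.133. Within each bleb group the left eye was the lower. With 1 punch per eye and bleb, the place of the punch in the retina, the bleb and the eye cannot be told apart, and these intervals cover counting error only.

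**Figure D2:**
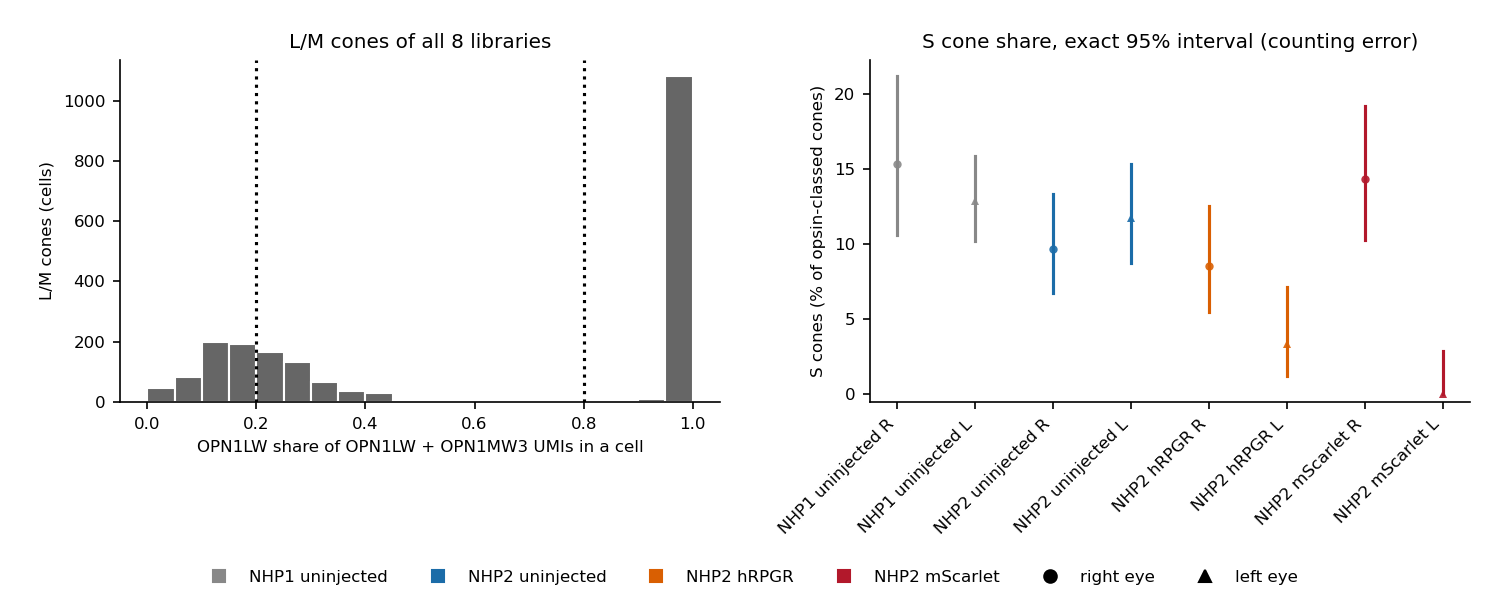
Left, the number of L/M cones by the share of their OPN1LW plus OPN1MW3 UMIs that fell on OPN1LW, with dotted lines at 0.2 and 0.8; right, S cones in percent of the opsin-classed cones of each library (R, right eye; L, left eye), with exact 95% intervals. The OPN1LW shares form a peak of 1081 cones at 0.95 to 1 and a broad one below 0.45, and the S shares run from 0% to 15.4%.

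Among the L/M cones, the share of OPN1LW in the OPN1LW plus OPN1MW3 UMIs took 2 separate ranges. It was at least 0.95 in 1081 of 2083 cells (51.9%) and below 0.45 in 951 (45.7%), with 51 cells between. The upper range was nearly pure, since 1003 of the 1124 cells over 0.5 had no OPN1MW3 UMI. The lower range was not: its cells gave a median of 18.6% of their UMIs to OPN1LW (quartiles 12.8 and 25.8%). In cells called M below, OPN1LW still stood at 286 to 476 CPM per library, whereas OPN1MW3 stood at 1.65 to 11.9 CPM in cells called L. The part of the mismatch-poor first 300 aligned bases, or of the 54 OPN1LW bases before them, in this asymmetry was not tested. The share of L/M cones over 0.5 was 47.3 and 47.6% in NHP1, 52.1 and 49.4% in NHP2_uninjected, 62.2 and 57.6% in NHP2_hRPGR and 65.6 and 63.5% in NHP2_mScarlet. The 4 bleb libraries lay above the 4 libraries labelled uninjected, a difference noticed in the data and given without a test.

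S cones were then compared with L/M cones of the same library, in the 6 libraries with at least 10 cells of each class (left NHP2_hRPGR with 6 S cones and left NHP2_mScarlet with 0 were not used). S cones held more CNGB3 and GNAT2 and less PDE6H, GRK7 and ARR3 than L/M cones. Counts were summed per library and class and fitted with edgeR's quasi-likelihood test with the library as a block, so that each S sum was set against the L/M sum of its own library. Of the 9454 features tested, 17.1% passed an adjusted p of 0.05 (9.12% higher and 7.95% lower in S cones). Of the 7 members that did not define the classes, 2 were higher and 3 lower. The median log2 difference was -0.22 over the 7 members and -0.01 over all features.

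CNGB3, in S and L/M cones respectively, stood at 468 and 242 CPM in right NHP1, 593 and 177 in left NHP1, 788 and 301 in right NHP2_uninjected, 574 and 266 in left NHP2_uninjected, 677 and 300 in right NHP2_hRPGR and 693 and 388 in right NHP2_mScarlet. Every S sum of CNGB3 was above every L/M sum. The log2 difference was 1.15 (SE 0.10, adjusted p = 1.54e-08), 2.23-fold. GNAT2 stood at 591 and 529, 942 and 514, 891 and 616, 838 and 571, 949 and 564, and 771 and 606 CPM in the same order of libraries and classes. S cones were higher in 6 of 6 libraries although the ranges overlapped, by 0.49 on the log2 scale (SE 0.10, adjusted p = 0.00067).

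PDE6H stood at 2578 and 4131, 1270 and 3848, 3508 and 7200, 2370 and 4838, 2619 and 3993, and 3184 and 6055 CPM in S and L/M cones in the same order. The S sums lay below every L/M sum, with a log2 difference of -1.03 (SE 0.12, adjusted p = 9.57e-07), or 0.491 times the L/M level. GRK7, which phosphorylates light-activated cone opsins, was lower in S cones in 6 of 6 libraries (307 to 678 CPM against 511 to 693), by -0.58 on the log2 scale (SE 0.10, adjusted p = 0.000204). In left NHP1 the pair was close, at 678 and 693 CPM. ARR3 was lower in 6 of 6 libraries as well (2712 to 4472 CPM against 3759 to 5197; log2 difference -0.40, SE 0.10, adjusted p = 0.00543). Without the library block ARR3 did not pass (adjusted p = 0.114) and the other 4 did, beside 1017 of 9454 features.

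For 2 members no difference passed the test. PDE6C gave a log2 difference of -0.22 (95% interval -0.41 to -0.03, adjusted p = 0.103), with S cones lower in 5 of 6 libraries. Its adjusted p was 0.0246 without left NHP1 (log2 difference -0.25), and 0.0475 with the doublet-scored cells kept. GUCA1C gave 0.09 (95% interval -0.11 to 0.28, adjusted p = 0.611). The low-mitochondrial cluster held 31.7% of the S cones and 16.9% of the L/M cones. Without its cells all 7 members passed, beside 1590 of 9152 features. On the log2 scale CNGB3 was at 1.06, GNAT2 at 0.47, PDE6H at -0.79, GRK7 at -0.66, ARR3 at -0.30, PDE6C at -0.24 and GUCA1C at 0.19. The last 2 had adjusted p of 0.0400 and 0.0428. The differences did not themselves differ between the animals at an adjusted p of 0.05 for any of the 7 members (46 of 9454 features did; GRK7 had the lowest unadjusted p, 0.0437, adjusted 0.639).

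**Figure D3:**
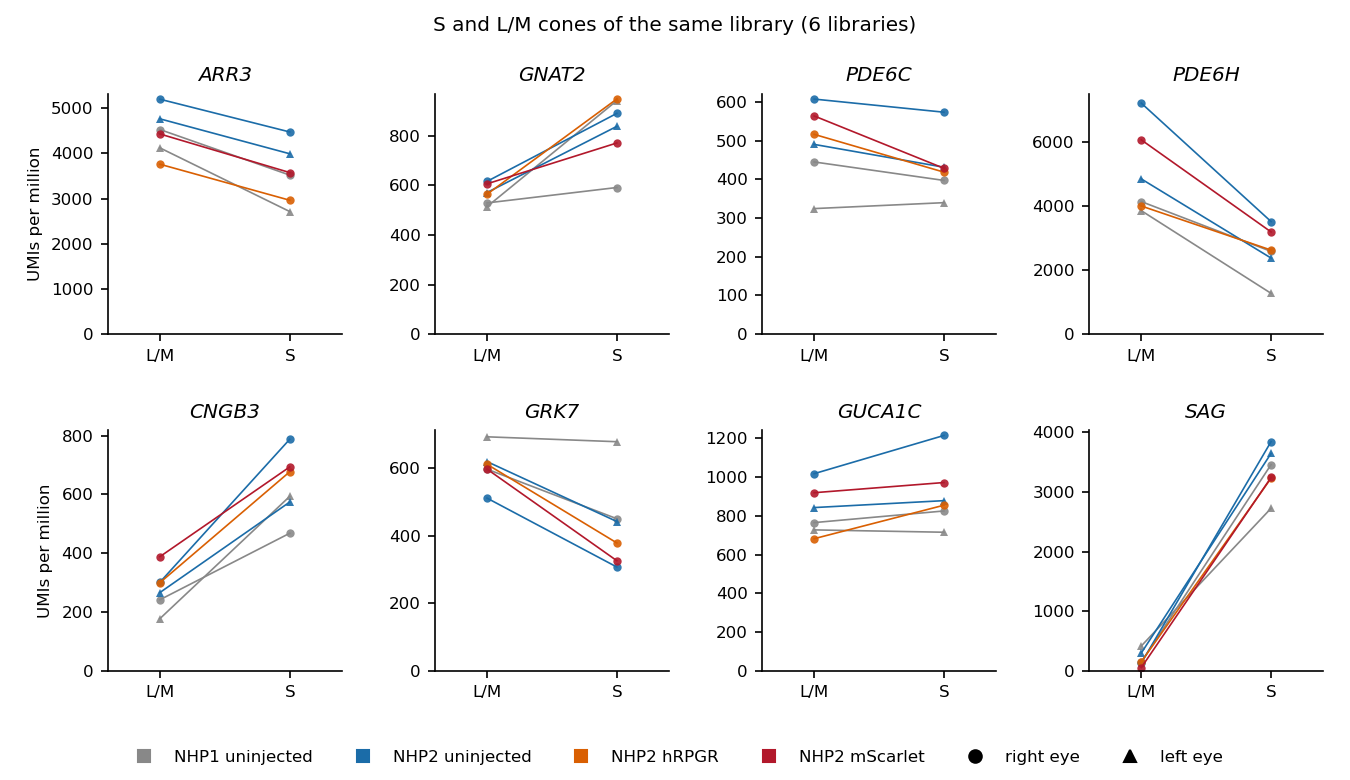
CPM of the 7 members that did not define the classes, and of SAG, in L/M and S cones, each line joining the sums of 1 library (n = 6; axes start at 0). CNGB3 is higher in S cones in all 6 pairs (468 to 788 against 177 to 388 CPM), PDE6H lower in all 6, and SAG changes most.

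Other genes of the pathway came from a list of 23 cone partners, of which 20 were tested here. In S cones 3 were higher and 7 lower, beside 9.12% higher and 7.95% lower of all features. The median log2 difference over the 20 was -0.18. The 6 with the lowest p were mostly lower. GUCA1A and GUCA1B, the other guanylate cyclase activators, stood at 736 to 1318 CPM in S cones against 1817 to 2900 in L/M cones (log2 difference -1.19, SE 0.11, adjusted p = 1.24e-08) and at 773 to 1092 against 1418 to 1724 CPM (-0.89, adjusted p = 1.90e-07). The third activator, GUCA1C, did not pass, as given above. THRB, a thyroid hormone receptor known for its part in L and M opsin expression, fell by 1.28 on the log2 scale (adjusted p = 1.15e-07), with left NHP1 S cones highest at 448 CPM and the other 5 at 133 to 238. CNGA3, the channel subunit that assembles with CNGB3, was lower at 30.5 to 46.7 CPM against 56.0 to 72.8 (log2 difference -0.76, adjusted p = 0.00029), so that the 2 channel subunits differed between the classes in opposite directions. PDE6D, a carrier of lipid-modified proteins, was lower by -0.71 (adjusted p = 0.000182) and RXRG, a retinoid receptor, higher by 0.47 (adjusted p = 0.000665).

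The rod counterparts of the members gave 2 higher and 0 lower of 11 tested, with a median log2 difference of 0.28, beside 9.12% higher and 7.95% lower of all features, so the count is not particular to these genes. SAG, the arrestin of rods, stood at 3458 and 145, 2726 and 416, 3844 and 130, 3647 and 298, 3231 and 151, and 3243 and 53.6 CPM in S and L/M cones in the order of libraries used above. The classes did not overlap (log2 difference 4.29, SE 0.27, adjusted p = 6.09e-11). PDE6G, the rod inhibitory subunit, was at 90.5 to 422 CPM against 65.7 to 145 (log2 difference 0.72, adjusted p = 0.000707), which did not pass without the library block (adjusted p = 0.151). ARR3 and SAG, which both bind opsins, therefore differed between the classes in opposite directions, ARR3 by -0.40.

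L cones and M cones were compared in the same way, with L cones giving at least 80% and M cones at most 20% of their L and M opsin UMIs to OPN1LW (1100 and 541 cells, all 8 libraries). None of the 7 members passed with edgeR or with DESeq2. The background was 6 of 9350 features (0.0642%, with 0.0214% higher and 0.0428% lower in L cones), with 413 at an unadjusted p under 0.05, none of them a member. The log2 differences (L minus M) lay between -0.10 for GNAT2 (95% interval -0.20 to 0.00) and 0.05 for PDE6C (-0.05 to 0.15), and those of ARR3 (0.05), PDE6H (-0.02), GUCA1C (-0.05), CNGB3 and GRK7 (both 0.00) lay between, with an interval of -0.11 to 0.11 for CNGB3. Of 20 cone partners and 11 rod counterparts tested, 0 passed in either direction. Because M cells called at 20% or less left 442 L/M cones out, an alternative with M up to 50% and L from 90% was added after the data were seen, and again 0 members passed. With the stricter shares of 90% and 10%, which left 5 libraries and 126 M cones, 0 members passed as well, but the values were larger: PDE6H stood at 0.73 (adjusted p = 0.139), GUCA1C at 0.35 (0.263) and ARR3 at 0.30 (0.317), each with an unadjusted p under 0.05, as had 1357 of 8696 features. A difference in these 3 members is therefore not settled by the near-zero values above. The low-mitochondrial cluster, described further on, held less of these 3 members than the other cones. L and M cones were not compared without it, so its part in these values was not tested.

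Whether vector, eye or animal went with the level of the members in cones was asked in sums over all cones of a library. None of the 10 members passed in any of 5 comparisons with edgeR. With NHP2_mScarlet against NHP2_uninjected the background was 1.34% (154 of 11493 features, 0.914% higher and 0.426% lower), and 0 members had an unadjusted p under 0.05. It was 74 features with the eye as a block and fewer without left NHP2_mScarlet. It was 312 with DESeq2, 315 in L/M cones only and 335 without the low-mitochondrial cluster. In the last 2 settings 0 members passed, but 2 and 3 had an unadjusted p under 0.05, as had 1954 and 2043 features. With NHP2_hRPGR against NHP2_uninjected the background was 0.0174% (2 features). It was 4 features with the eye as a block, 37 with DESeq2 and 15 in L/M cones only. With NHP2_mScarlet against NHP2_hRPGR it was 0.209% (24 features, 0.183% higher and 0.0261% lower), and 75 features with DESeq2. With left against right eyes of NHP2 it was 0.0087% (1 feature), and 0 features with DESeq2. Each of these main fits had 0 members at an unadjusted p under 0.05, and the number of features called moved with the library left out. The first 3 comparisons share libraries and are not independent. The right NHP2_uninjected library, whose rods and cones held coRPGR, is 1 of the 2 controls in both comparisons with NHP2_uninjected. Without it again 0 members passed in either, with 80 features called for NHP2_mScarlet and 5 for NHP2_hRPGR. DESeq2 called 0 members in these 4 comparisons, and 1 had an unadjusted p under 0.05 (NHP2_mScarlet against NHP2_uninjected). The cone partners (21 tested) and rod counterparts (11 tested) gave 0 calls in all 5. The median log2 difference of the rod counterparts was -0.91 for NHP2_mScarlet against NHP2_uninjected and -0.64 against NHP2_hRPGR, where that of the cone partners was -0.01 in both. The rod genes summed to 1284 and 437 CPM in the cones of the right and left NHP2_mScarlet libraries, 1111 and 1834 in NHP2_uninjected and 1578 and 743 in NHP2_hRPGR. These sums include SAG, which is high in S cones, and 0 S cones were found in left NHP2_mScarlet. The part of RNA from rods in the members' values was not tested.

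The intervals show what these sums could resolve. For NHP2_hRPGR against NHP2_uninjected, GNAT2 gave a log2 difference of -0.09 (95% interval -0.37 to 0.19) and GRK7 one of 0.08 (-0.20 to 0.36). OPN1LW (0.08), OPN1MW3 (-0.23), OPN1SW (-0.25), ARR3 (-0.19), PDE6C (-0.04), CNGB3 (0.12) and GUCA1C (-0.26) gave values that passed no test either. Without right NHP2_hRPGR 7 of the 10 members were above 0 in place of 3 (median 0.05 in place of -0.14). Without left NHP2_hRPGR 3 were above 0 (median -0.12). No direction is therefore read from these values. PDE6H had the widest interval apart from OPN1SW, -0.24 (-0.80 to 0.32). For NHP2_mScarlet against NHP2_uninjected, ARR3 had the lowest unadjusted p, with a log2 difference of -0.36 (-0.75 to 0.03, adjusted p = 0.342), from 4227 and 3958 CPM in the blebs and 5076 and 4623 CPM in the libraries labelled NHP2_uninjected. The difference of OPN1LW was 0.26 (-0.11 to 0.64) and that of OPN1MW3 -0.36 (-0.78 to 0.06). GNAT2 (-0.22), PDE6C (-0.13), PDE6H (-0.05), CNGB3 (0.22), GRK7 (-0.07) and GUCA1C (-0.13) did not pass. OPN1SW was not resolved: its interval was -3.54 to 1.73, with 1 of the 2 bleb libraries at 0 UMIs. With that library alone standing for the mScarlet blebs, OPN1SW passed (adjusted p = 0.0195), in a fit that takes the spread of the lone library from the other groups and in which 0 UMIs give no usable fold. Without it the log2 difference was 0.06 (adjusted p = 0.988). A cone sum holds both the number of S cones and the OPN1SW level in each, and 0 S cones were found in that library, so fewer cells and less RNA per cell cannot be told apart from the sum. For left against right eyes of NHP2 the OPN1SW difference was -1.90 (-4.27 to 0.47), from 291, 118 and 0 CPM in the left and 262, 355 and 306 CPM in the right eye, which overlapped. OPN1LW (0.01), OPN1MW3 (0.13), ARR3 (0.08), GNAT2 (-0.11), PDE6C (-0.06), PDE6H (0.10), CNGB3 (-0.09), GRK7 (0.13) and GUCA1C (0.06) all lay near 0, and the count above 0 went from 6 of 10 to 1 of 10 without either NHP2_hRPGR library. For NHP2_mScarlet against NHP2_hRPGR the differences were 0.18 for OPN1LW, -0.13 for OPN1MW3, -0.66 for OPN1SW, -0.17 for ARR3, -0.13 for GNAT2, -0.10 for PDE6C, 0.19 for PDE6H, 0.10 for CNGB3, -0.15 for GRK7 and 0.12 for GUCA1C. Their median, -0.11, was 0.05 without left NHP2_mScarlet and 0.13 without left NHP2_hRPGR.

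In areas labelled uninjected, NHP2 cones were set against NHP1 cones, where the background was 2.17% (246 of 11325 features, 0.839% higher and 1.33% lower in NHP2). No member passed, although 4 had an unadjusted p under 0.05, as had 1647 of the 11325 features. These were OPN1LW (log2 difference 0.45, 95% interval 0.04 to 0.87), OPN1MW3 (0.49, 0.13 to 0.84), PDE6C (0.47, 0.02 to 0.91) and PDE6H (0.60, 0.10 to 1.10), with adjusted p from 0.197 to 0.314. For these 4 both NHP2 libraries were above both NHP1 libraries, and so they were for ARR3, GNAT2, CNGB3 and GUCA1C. For OPN1SW and GRK7 the libraries of the animals overlapped. The share of all features with such an order was not counted, so the order is not read as particular to the members. The others were CNGB3 (0.31), GUCA1C (0.31), ARR3 (0.19), GNAT2 (0.14), OPN1SW (0.07) and GRK7 (-0.26). Without right NHP1 the log2 differences of PDE6C and PDE6H were 0.72 and 0.71. The median over the 10 members, 0.31 in the main fit, was 0.43 without right NHP1 and 0.43 without left NHP2_uninjected. It was 0.20 without left NHP1 and 0.19 without right NHP2_uninjected. With DESeq2, OPN1MW3 and PDE6H passed, where 310 features were called in all. With the eye as a block all 4 passed (adjusted p = 0.0213, 0.0062, 0.0028 and 0.0101 in the order above), where 1359 features were called. In that fit group and eye leave the 4 libraries almost no spread per gene. Its p-values therefore rest on a spread pooled over genes. These calls depend on the setting. The eye number marks the side and the adalimumab in both animals. NHP1 differs from NHP2 in vector, age and animal, which cannot be told apart, and 2 of these 4 libraries (left NHP1 and right NHP2_uninjected) held transgene UMIs in cones against their labels. The low-mitochondrial cluster also held unequal shares of their cones (16.8 and 32.8% in NHP1, 12.8 and 25.6% in NHP2_uninjected), and without it 0 members passed again, with the same 4 at an unadjusted p under 0.05 (OPN1LW 0.39, OPN1MW3 0.45, PDE6C 0.47 and PDE6H 0.44) and a median over the 10 members of 0.42 in place of 0.31.

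**Figure D4:**
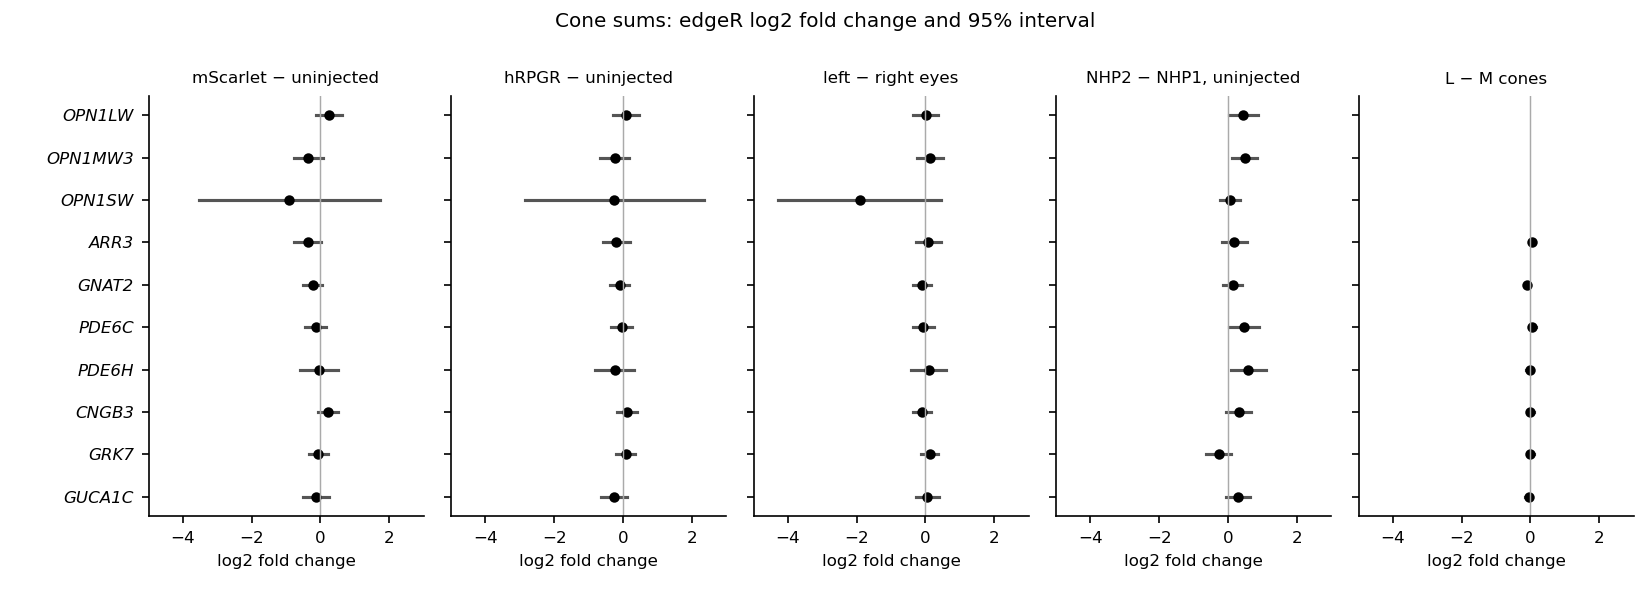
Log2 difference (points) with its 95% interval (lines) from edgeR for each member, in 4 comparisons of cone sums and in L against M cones, where the 2 opsins that define those classes and OPN1SW are not shown. No member passed an adjusted p of 0.05, and the OPN1SW intervals are the widest in the 3 comparisons within NHP2, such as -3.54 to 1.73 for mScarlet.

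Within the cones, the cluster of 552 cells with a median mitochondrial share of 0.111% differed from the other cones of the same libraries in its makeup of members. The clustering used all genes but the members, so these values are a description with no test. PDE6H was at 0.048 times the level of the other cones (median over 8 libraries, range 0.034 to 0.062), from 173 to 408 CPM in the cluster and 4357 to 7329 CPM outside it. GUCA1C was at 0.339 times, OPN1LW at 0.369, OPN1MW3 at 0.396, ARR3 at 0.606 and PDE6C at 0.732 times, each below 1 in all 8 libraries. GNAT2 was at 0.893 times (0.608 to 2.08), above 1 in 3 libraries and highest in left NHP1. OPN1SW ran from 0.040 to 8.04 times over the 7 libraries with OPN1SW UMIs in cones, above 1 in 3 and also highest in left NHP1. In contrast, GRK7 was at 1.54 times (1.27 to 1.87) and CNGB3 at 1.67 times (1.24 to 2.79), both higher in 8 of 8 libraries. The summed level of the members was at 0.439 times. The cluster held 56.7% of the 208 cones with too few opsin UMIs. It held 15 to 207 cells per library, with a median of 11326 UMIs per cell against 18889 and 12847 in the other 2 cone-like clusters, and the part of depth in these ratios was not tested.

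Outside cones most member UMIs followed the free RNA. Rods, bipolar cells and Muller glia held medians over libraries of 0.062 to 0.323 times the free RNA for the 10 members. At 3000 UMIs per cell after thinning, ARR3 was found in 98.9 to 100% of cones and in 0.711 to 24.4% of rods, the latter highest in a library rich in free RNA, and before thinning in 99.3 to 100% and 1.25 to 40.8%. How much of these rod shares is free RNA was not tested. Of 770 values of a member in a class other than cones and in 1 library (at least 20 cells), 13 stood above the free RNA. These were CNGB3 in RPE-like cells (3 libraries) and OPN1SW in bipolar-like cells (2 libraries), described next, OPN1MW3, PDE6H and GUCA1C in unnamed cells of right NHP2_mScarlet (1.08 to 1.22 times), and 5 single values. The single values were GRK7 in mural-like cells (28 UMIs in 27 cells, 1.88 times), OPN1MW3 in B-like cells (60 UMIs, 1.61 times), PDE6C in T/NK-like cells (3 UMIs, 2.10 times), OPN1SW in Muller glia (3 UMIs, 2.04 times) and CNGB3 in myeloid-like cells (2 UMIs, 1.68 times).

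CNGB3 was present in RPE-like cells, the pigment epithelium behind the photoreceptors. In the 3 libraries with at least 20 such cells it stood at 490 CPM (458 UMIs, 84 cells, right NHP1), 449 CPM (168 UMIs, 55 cells, left NHP2_uninjected) and 418 CPM (59 UMIs, 26 cells, left NHP2_hRPGR). These were 70.5, 13.2 and 39.8 times the free RNA, and of the order of the 228 to 421 CPM in cones. After thinning, 68.8 and 75.7% of the RPE-like cells of 2 libraries held a CNGB3 UMI, against 44.0 to 71.4% of cones and 0.142 to 1.14% of rods. In the same cells the other 9 members stood at 0 to 0.143 times the free RNA, with ARR3 at 7.08 to 64.1 CPM and PDE6C at 0 CPM.

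PDE6H was present in 2 of the 10 bipolar-like clusters. Bipolar cells carry the photoreceptor signal onwards, and these clusters were rich in GRIK1, a glutamate receptor subunit of OFF bipolar cells. PDE6H stood at 593 and 329 CPM in them (clusters 43 and 49) over all libraries, and at 23.6 to 41.2 CPM in the other 8. In the first, the level was 471 CPM in right and 609 in left NHP1, 650 and 741 in NHP2_uninjected, 393 and 869 in NHP2_hRPGR, and 278 and 520 in NHP2_mScarlet. The range was 0.581 to 7.54 times the free RNA, below 1 in the left NHP1, left NHP2_uninjected and right NHP2_hRPGR libraries, which were richest in free RNA. In the second it was 126 to 514 CPM in the 6 libraries with at least 20 cells. The other members stayed at or below 21.4 CPM in the first cluster, and 3 further GRIK1-rich clusters stood at 29.2 to 41.2 CPM of PDE6H. The first cluster also held TRPM1 at 781 CPM, above the 4.81 to 185 CPM of the other GRIK1-rich clusters. Clusters with GRM6, a marker of ON bipolar cells, held 1777 to 2629 CPM of TRPM1.

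OPN1SW had a smaller signal in bipolar-like clusters with GRM6, ISL1 and PRKCA, markers of ON and rod bipolar cells. The 3 clusters with the most PRKCA stood above 10 CPM (10.3 and 11.2 in the lower 2) and the other 7 at 2.81 to 7.30 CPM. The left NHP2_mScarlet library is informative, since its cones held no OPN1SW UMI and its free RNA stood at 0.382 CPM. The largest of these clusters held 15 OPN1SW UMIs in 258 cells there (7.70 CPM), 20.1 times the free RNA. Muller glia of that library held 3 UMIs in 416 cells (0.779 CPM), 2.04 times the free RNA. The level was 5.25 to 27.2 CPM in the same cluster of the other 7 libraries, which was 2.14 times the free RNA in right NHP1 and 0.113 to 0.765 times, below it, in the other 6. GNAT2 and ARR3 stood at 38.9 and 43.6 CPM in 1 bipolar-like cluster rich in TRPM1 (248 cells), against at most 15.6 and 27.6 CPM in the other 9. These levels are summed over libraries that differ in free RNA. In the 6 libraries with at least 20 cells of that cluster, GNAT2 stood at 8.15 to 58.9 CPM, 0.215 to 5.57 times the free RNA and above it in 3. ARR3 stood at 14.8 to 93.5 CPM, 0.102 to 0.460 times the free RNA and below it in all 6, against 0.057 to 0.121 times over all bipolar-like cells of a library. Whether this is more than free RNA was not tested.

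**Figure D5:**
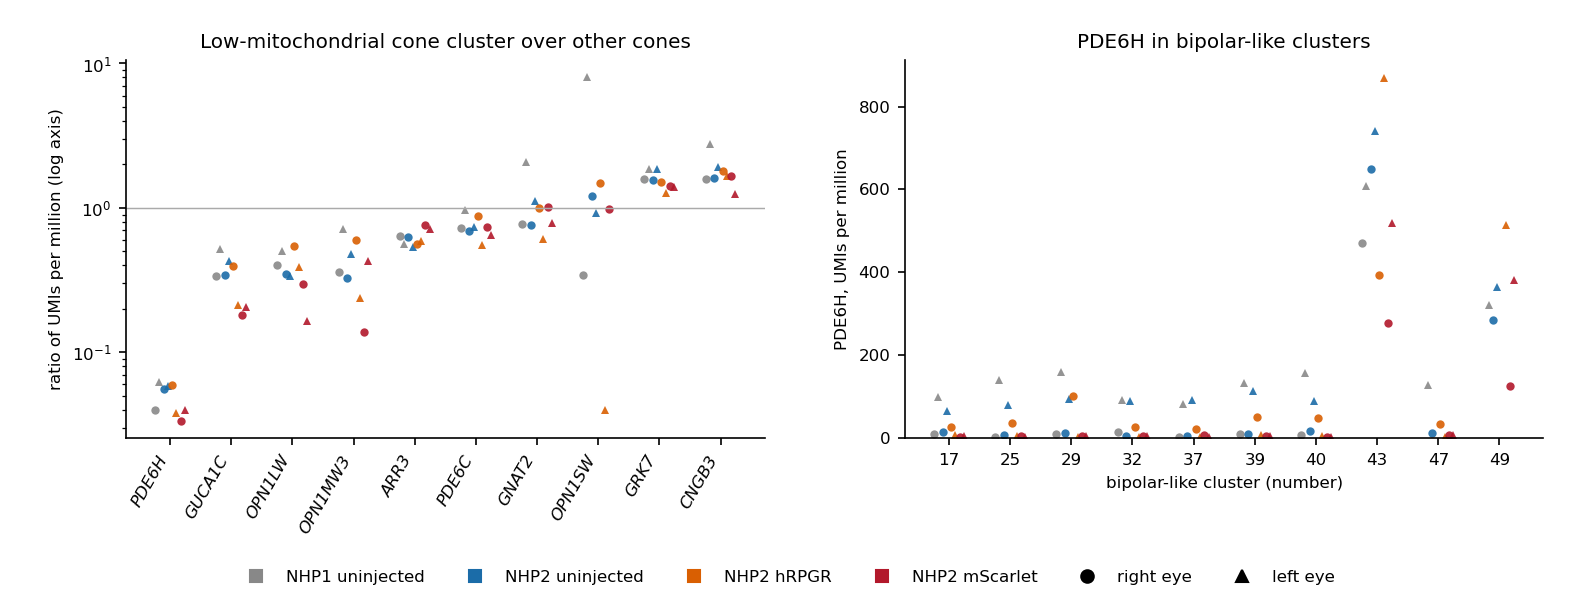
Left, the ratio of CPM in the low-mitochondrial cone cluster to CPM in the other cones of the same library (log axis); right, PDE6H in CPM in the 10 bipolar-like clusters by number; points are libraries. PDE6H lies at 0.034 to 0.062 in the left panel while GRK7 and CNGB3 lie above 1 in every library, and clusters 43 and 49 stand out for PDE6H (593 and 329 CPM over all libraries).

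GRK7 in rods was higher relative to the free RNA in NHP1 than in NHP2. Rods of NHP1 held 5.28 CPM (168 UMIs in 5557 cells, right) and 61.7 CPM (2787 UMIs in 7214 cells, left), which were 0.442 and 0.901 times the free RNA. Rods of the 6 NHP2 libraries held 0.692 to 6.39 CPM, 0.071 to 0.122 times the free RNA. For comparison, ARR3 in rods lay at 0.045 to 0.123 times the free RNA in all 8 libraries. In the rod clusters of left NHP1 with at least 100 cells, GRK7 was found at 8.39 to 70.3 CPM. There are 2 NHP1 libraries, both labelled uninjected, so this is given as values with no test.

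The genes most like the members were sought over 77 sums of class and library, by the correlation of their log levels with the mean over the 10 members, as a description in sums that share libraries. The closest were MYH4 (r = 0.911), RBP4 (0.873), HPDL (0.864), GUCA1B (0.851) and RAB41 (0.846), followed by INHBB, GUK1, ADRA1D, SEC14L5 and ALPK2 (0.843 to 0.826). GUCA1B is the cyclase activator named above, RBP4 carries retinol in blood, and GUK1 is a guanylate kinase. Of these 10, 2 lie near a member on the chromosome. RAB41 begins 279 bases after the end of ARR3 on the same strand, and RBP4 lies 11.8 kb from PDE6C on the opposite strand.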

How the data were processed

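The deposited values are UMI counts, whole numbers per feature and barcode. Per the file headers the authors used Cell Ranger 8.0.1, on Mmul_10 with 3 transgene features added. The matrices are unfiltered, and the study's later corrections (SoupX, scDblFinder, Harmony) are not in them.

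Cells were barcodes of at least 1500 UMIs and 300 genes with a mitochondrial share of up to 20%. The highest doublet scores (0.8% per 1000 cells) were removed, since the automatic threshold marked 0 to 4.67% of cells per library. Cells were clustered with scanpy 1.11.5 (3000 variable genes, 40 components, 15 neighbours, resolution 2) without batch correction and without the 10 members, and named from fixed markers. Of 61 clusters 44 were named, and differences from the study may come from the rebuilt names. Summed per library, the cones held 3010240 to 7591138 UMIs. Such sums were tested by the quasi-likelihood method of edgeR 4.0.16 (filterByExpr, TMM, Benjamini-Hochberg adjustment over all features, threshold 0.05; R 4.3.3). DESeq2 1.42.0 was an alternative. Log2 intervals are at 95% from the fit's degrees of freedom, and intervals of shares are exact Clopper-Pearson. All members tested are named in every comparison, and of the partner and rod lists at most 6 called genes per comparison by lowest p. Sequences and coordinates come from RefSeq's Mmul_10, and protein sequences were not used here. The model was run on simulated sums for NHP2_mScarlet against NHP2_uninjected and for S against L/M cones. These had the same spread for all genes and no effect of eye or punch, so they do not test the model under such effects.

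Within NHP2 a replicate number marks an eye of 1 animal and so pairs the libraries (correlations of paired deviations -0.21 to 0.10). The vector comparisons were fitted without the eye, with it as an alternative block. The members, lists and rules were chosen with earlier results of these data known.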

Additional observations from a re-analysis of the deposited data

How the results depend on the processing

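Over the alternatives (DESeq2, other size factors, no filter on low counts, L/M cones only, doublet-scored cells kept, a higher UMI minimum, other opsin thresholds, the replicate block, each library left out in turn, and 2 alternatives added after the data were seen, the low-mitochondrial cone cluster left out and M cones up to 50% with L from 90%), 915 values of single genes stayed on their side of the threshold, 21 passed it in addition and 2 no longer did. The sign turned for 65 of the 938, none of them past the threshold before or after: 0 of 210 for S against L/M cones, 21 of 112 for L against M cones, 18 of 139 for left against right eyes, and 2 to 10 in each other comparison. The number of members called in S against L/M cones was 5, between 4 and 7 under the alternatives (7 without the low-mitochondrial cluster, 4 to 6 otherwise) and 5 to 6 with each library left out, and in L against M cones it was 0 throughout, although the median over the 7 members went from 0.00 to 0.21 with shares of 90% and 10%. The features called in S against L/M cones were 1614 in the main fit, 1590 without the low-mitochondrial cluster and 1017 without the library block. L against M cones were not compared without that cluster. For NHP2_hRPGR against NHP2_uninjected the number of members called was 0 under every alternative. Without the filter on low counts it was 2 for NHP2_mScarlet against NHP2_uninjected (OPN1SW and ARR3), with 1054 features in place of 154. It was 1 for NHP2_mScarlet against NHP2_hRPGR (OPN1SW), with 354 features in place of 24. For left against right eyes of NHP2 it was 1 (OPN1SW, 79 features in place of 1) and for NHP2 against NHP1 4 (1006 in place of 246). In the first of these OPN1SW stood at -0.92 (SE 0.15), although its 2 bleb libraries stood at 306 and 0 CPM. That SE takes in little of the spread between libraries. The cause of this rise in the number of members called was not tested. With each library left out it ranged from 0 to 1 for NHP2_mScarlet against NHP2_uninjected and from 0 to 2 for NHP2 against NHP1. For NHP2 against NHP1, DESeq2 called 2 members and 310 features. The eye as replicate block called 4 members (OPN1LW, OPN1MW3, PDE6C, PDE6H) and 1359 features, where the main fit called 246 features. The eye number there marks side and adalimumab in different animals (correlation of deviations 0.33). The eye block within NHP2 changed no call of a member. The mean S share over libraries, 9.50%, was 9.37 to 9.79% under other thresholds and 8.66 to 10.9% with each library left out, and the mean log2 level over free RNA, 4.45, was 3.80 to 4.45 and 4.20 to 4.80.

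OPN1SW in the bleb libraries rests on 0 to 37 S cones. The 2 NHP1 libraries and 1 animal per vector limit every comparison of groups.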
